A study of Mus musculus with 18 samples.

Results

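The nuclear genes whose names begin with Timm or Tomm encode most of the machinery that carries proteins into mitochondria, and the occupancy of their promoters and bodies by KDM2A and by H3K36me2 was examined in mouse B cells with and without miR-155. All protein-coding genes of GENCODE M21 (GRCm38) with symbols starting Timm or Tomm were taken, which gave 26 of 21951 protein-coding genes. A further Tomm name, Tomm6os, belongs to an antisense RNA and was left out, so 27 genes of any type carry such names.

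The series holds 18 ChIP-seq libraries from primary splenic B cells, 12 of which have a list of peaks. WT cells came from Mir155-sufficient and KO cells from Mir155-deficient mice. Both were cultured for 2 days at 1% O2 with anti-CD40, F(ab')2 anti-IgM and IL-4, so every group shares the hypoxia and the stimulation and no normoxic or resting group was analysed here. KDM2A, an enzyme that removes H3K36me2, and H3K36me2 itself were each precipitated in 3 WT and 3 KO libraries. Replicate 1 of every group was male and replicates 2 and 3 were female. Whether a replicate was 1 animal or a pool is not given in the sources used here, so the spread between replicates may be partly technical. Mir155-deficient mice were kept on a C57BL/6 J background, the loss was not restricted to B cells, and ages are not given by sample.

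Mitochondrial precursors enter through the TOM complex of the outer membrane, in which Tomm20, Tomm22 and Tomm70a are receptors, Tomm40 is the channel and Tomm5, Tomm6 and Tomm7 are small subunits. Precursors with a presequence then pass the TIM23 complex of the inner membrane, metabolite carriers are inserted by the TIM22 complex, and hydrophobic precursors are escorted between the membranes by small TIM chaperones. KDM2A reaches unmethylated CpG islands through its CXXC zinc finger, and H3K36me2 is a methylation of histone H3 that is typically spread over gene bodies and intergenic chromatin.

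The KDM2A lists held 15387 to 29105 peaks over 0.433 to 1.11% of the genome and the H3K36me2 lists 37447 to 106720 peaks over 1.44 to 5.32%. The male KO H3K36me2 list stood apart from its group, with 3.63% of the genome under peaks against 1.59 and 1.44% in the female KO lists and 4.17 to 5.32% in the WT lists. Read depth is not known from peak lists, and counting intervals cannot be given. Promoters of 5 of 7 B cell marker genes carried a KDM2A peak in all 6 lists and none of the 7 lacked one in every list, whereas 0 of 4 T cell, 0 of 4 myeloid and 0 of 2 erythroid marker genes had a peak in all 6. Peaks do not measure transcripts, so the levels of these genes were not checked.

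RefSeq promoter windows (GRCm38.p6), 250 bases before to 50 after the outermost RefSeq start, were matched for 23 of the 26 genes. The windows of 6 genes on which the results turn are printed 5′ to 3′ with CpG dinucleotides in capitals. Timm13 had the strongest KDM2A promoter peaks, Timm10b and Timm29 had KDM2A folds and Timm8b and Timm8a2 H3K36me2 promoter coverage that did not overlap between genotypes, and Tomm20l had no KDM2A peak.
Timm13, chr10:80900920-80901219, minus strand: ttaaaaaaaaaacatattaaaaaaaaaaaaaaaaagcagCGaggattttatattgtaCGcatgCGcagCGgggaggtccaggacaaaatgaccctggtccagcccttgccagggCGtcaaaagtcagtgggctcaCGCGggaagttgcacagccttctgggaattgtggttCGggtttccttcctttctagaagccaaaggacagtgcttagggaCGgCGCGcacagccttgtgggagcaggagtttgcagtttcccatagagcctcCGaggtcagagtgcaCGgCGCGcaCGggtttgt
Timm10b, chr7:105640195-105640494, plus strand: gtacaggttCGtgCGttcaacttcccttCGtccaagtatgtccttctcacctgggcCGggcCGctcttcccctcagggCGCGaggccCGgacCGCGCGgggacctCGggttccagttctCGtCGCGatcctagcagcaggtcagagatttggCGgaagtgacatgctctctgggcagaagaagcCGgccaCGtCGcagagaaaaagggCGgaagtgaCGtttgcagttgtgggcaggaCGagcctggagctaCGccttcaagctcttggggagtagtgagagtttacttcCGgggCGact
Timm29, chr9:21592472-21592771, plus strand: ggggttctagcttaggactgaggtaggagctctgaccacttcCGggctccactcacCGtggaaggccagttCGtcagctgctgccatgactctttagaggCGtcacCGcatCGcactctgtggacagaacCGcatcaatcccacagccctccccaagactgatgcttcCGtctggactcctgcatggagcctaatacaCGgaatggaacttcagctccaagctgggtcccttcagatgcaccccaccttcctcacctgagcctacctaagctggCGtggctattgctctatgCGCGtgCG
Timm8b, chr9:50603651-50603950, plus strand: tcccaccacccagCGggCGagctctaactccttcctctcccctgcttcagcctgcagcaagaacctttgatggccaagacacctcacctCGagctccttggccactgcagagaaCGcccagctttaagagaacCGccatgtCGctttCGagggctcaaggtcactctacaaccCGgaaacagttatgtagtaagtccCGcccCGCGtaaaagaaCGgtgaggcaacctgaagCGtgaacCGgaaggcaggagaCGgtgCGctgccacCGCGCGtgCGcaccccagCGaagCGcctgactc
Timm8a2, chr14:122034424-122034723, plus strand: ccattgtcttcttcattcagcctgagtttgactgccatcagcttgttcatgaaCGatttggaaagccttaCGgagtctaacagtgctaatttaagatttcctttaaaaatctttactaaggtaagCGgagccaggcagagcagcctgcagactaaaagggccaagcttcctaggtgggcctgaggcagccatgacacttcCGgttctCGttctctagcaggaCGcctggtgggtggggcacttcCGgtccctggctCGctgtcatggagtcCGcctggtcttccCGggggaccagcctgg
Tomm20l, chr12:71111178-71111477, plus strand: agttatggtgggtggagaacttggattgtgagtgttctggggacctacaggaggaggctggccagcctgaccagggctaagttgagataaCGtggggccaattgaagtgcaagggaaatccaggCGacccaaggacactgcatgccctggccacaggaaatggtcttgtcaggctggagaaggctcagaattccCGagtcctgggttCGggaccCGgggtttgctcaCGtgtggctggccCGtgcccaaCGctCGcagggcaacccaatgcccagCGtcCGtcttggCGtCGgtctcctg

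KDM2A peaks were found at the promoters of 17 of the 26 import genes in both genotypes. With a promoter taken as 2 kb either side of any annotated start site, and with a peak required in at least 2 of the 3 lists before a gene counted as bound in WT or in KO, these 17 were bound in both WT and KO (39.4% of all protein-coding genes). The number fell to 9 with stricter peaks (−log10 q of at least 2), to 9 when all 3 lists were required, and to 11 both in female libraries and without KO replicate 3, and the 19 genes bound in WT became 12 without WT replicate 2. Where a list was left out, a peak was required in both remaining lists of that genotype. Such counts could therefore only fall or stay level. A further 2 genes, Tomm5 and Timm9, were bound in WT only (8.32% of all genes) and 1, Timm17b, in KO only (2.31%). The remaining 6, Tomm7, Tomm20l, Timm10, Timm22, Timm8a1 and Timm8a2, were bound in neither (49.9%). Per library, 18 ± 2.65 genes (SD, n = 3) carried a peak in WT and 17.3 ± 3.21 in KO. The genotypes overlapped, and the corresponding shares were 69.2% and 66.7% against 47.5% and 41.2% of all protein-coding genes. The all-gene background includes genes silent in B cells, and its difference from the import genes was not tested.

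**Figure D1:**
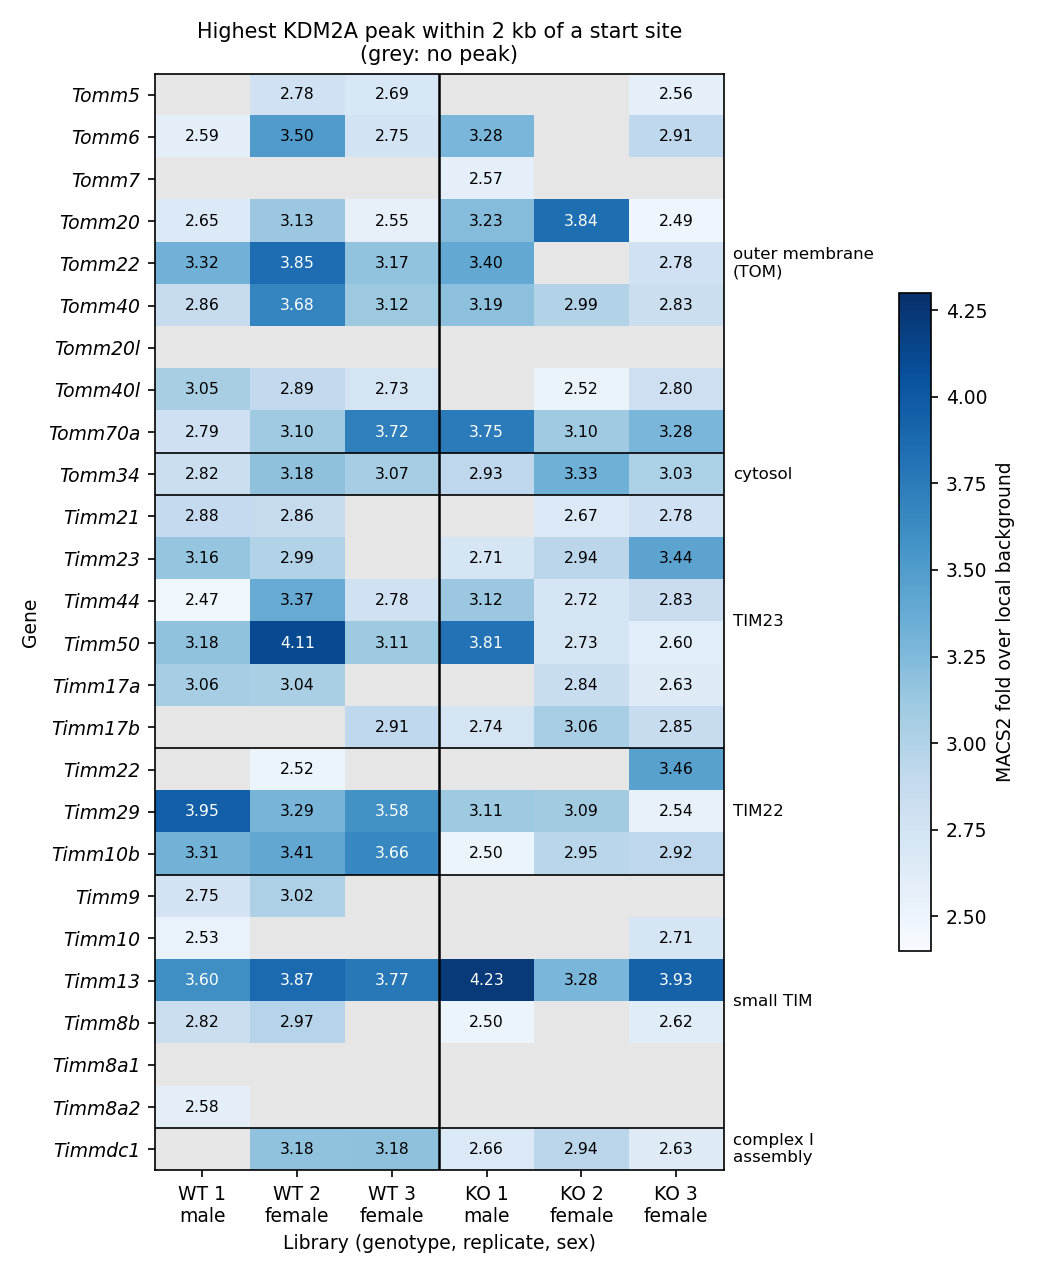
Fold over local background of the highest KDM2A peak within 2 kb of any start site, for each of 26 genes (rows, grouped by role) in each of 6 libraries (columns); grey cells have no peak. Timm13 has the darkest row, with 3.28 to 4.23 in every library, while Tomm20l and Timm8a1 are grey throughout.

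By role, all 6 subunits of the TIM23 presequence translocase and its motor anchor were bound in WT or KO, 5 of them in both. This count includes Timm44, whose own start had a peak in 1 list of each genotype and which otherwise counts through peaks inside Ctxn1, and Timm17b, whose peaks were all centred inside Pqbp1. It also includes Timm21, whose peaks in WT replicate 2 and KO replicates 2 and 3 were centred inside Fbxo15 and outside Timm21. That of KO replicate 2 covered no Timm21 start. Of the 9 outer membrane genes, 6 were bound in both genotypes, Tomm5 in WT only and Tomm7 and Tomm20l in neither. Of the 3 TIM22 genes, Timm10b and Timm29 were bound in both, while Timm22, the carrier-inserting channel subunit itself, was bound in neither. Of the 6 small TIM chaperones, Timm8b and Timm13 were bound in both, Timm9 in WT only and the other 3 in neither. Tomm34, a cytosolic cochaperone, and Timmdc1, an assembly factor of respiratory complex I, were bound in both. These groups hold 1 to 9 genes and their difference was not tested.

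Of the genes not bound in both genotypes, Timm9, Tomm5 and Timm17b had peaks in more than 1 list of a genotype. Timm9, which forms a chaperone hexamer with Timm10, had KDM2A folds of 2.75 and 3.02 in WT replicates 1 and 2 and no peak in the other 4 lists. Tomm5 had folds of 2.78 and 2.69 in WT replicates 2 and 3 and of 2.56 in KO replicate 3. Timm17b, a channel subunit of TIM23 encoded on the X chromosome, had folds of 2.74, 3.06 and 2.85 in the KO lists and of 2.91 in WT replicate 3. All 4 Timm17b peaks were centred inside Pqbp1, its head-to-head neighbour, and those of KO replicates 2 and 3 covered no Timm17b start site. Each of the 3 therefore had a peak in 2 to 4 of the lists, and none was present in all lists of one genotype and absent from all of the other.

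Among the unbound genes, Timm22 had a peak in WT replicate 2 (fold 2.52) and KO replicate 3 (3.46). Timm10 had one in WT replicate 1 (2.53) and KO replicate 3 (2.71), Timm8a2 in WT replicate 1 (2.58) and Tomm7 in KO replicate 1 (2.57). Tomm20l, a paralogue of the receptor Tomm20, and Timm8a1, an X-linked small TIM, had no KDM2A peak in any list. Of the paralogue pairs, Tomm20 had a peak in 6 lists and Tomm20l in 0, whereas Timm17a and Timm17b had one in 4 lists each.

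The KDM2A peaks lay on the start sites. Of the 106 strongest promoter peaks (1 per gene and list), 97 or 91.5% covered a start site, and their median width was 871 bp. Any annotated start of a gene counted, and the same share was not computed for all protein-coding genes. Averaged over 3 libraries, the share of import genes under a KDM2A peak was 59.0% in WT from the gene start to 200 bp inside the gene, and in KO it was highest at the start, at 55.1%. For all protein-coding genes it was highest 100 bp inside the gene, at 34.1% in WT and 28.7% in KO.

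**Figure D2:**
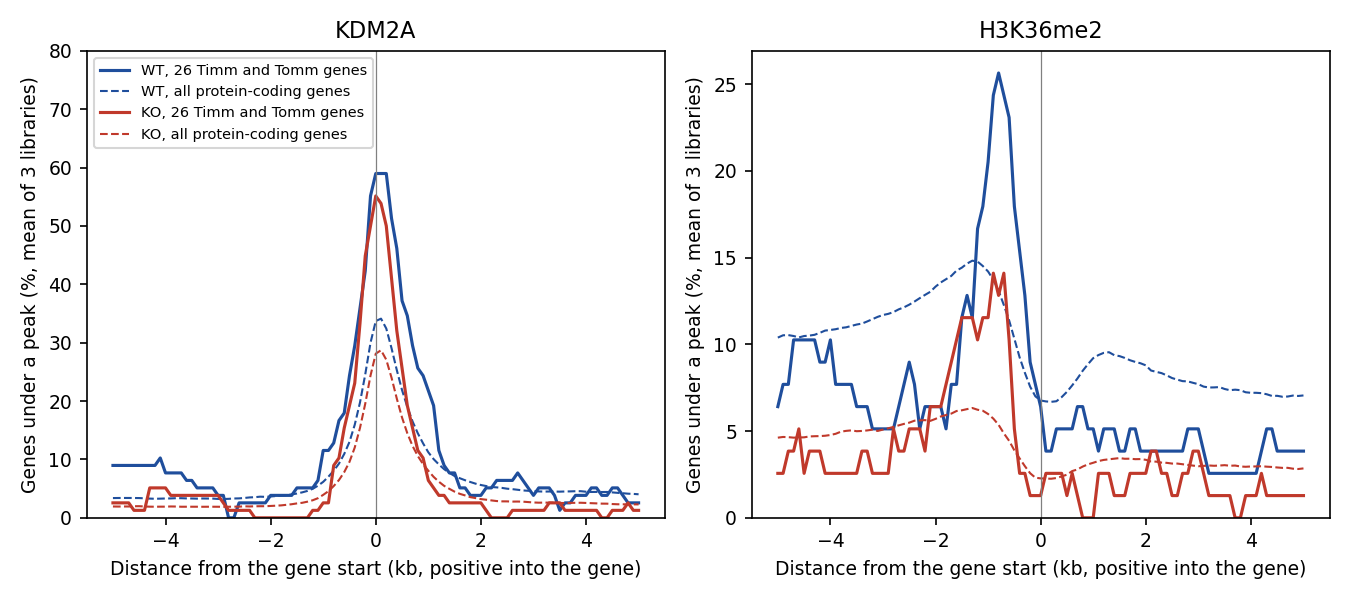
Share of genes under a KDM2A (left) or H3K36me2 (right, own scale) peak by distance from the gene start in 100 bp steps; solid lines are the 26 import genes, dashed lines all protein-coding genes, and each line is the mean of 3 libraries. KDM2A covers 59.0% of import genes in WT from the start to 200 bp inside and is highest in KO at the start, with 55.1%, and H3K36me2 is highest upstream of it.

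Many of these promoters were shared with a neighbour, which bears on what a peak can be assigned to. A protein-coding gene on the opposite strand started within 1 kb of a start site of 9 of the 26 genes (34.6%), against 12.3% of all protein-coding genes, and within 200 bp for 6 of them (23.1% against 8.75%). Timm10b and Arfip2 start 32 bp apart, Timm29 and Yipf2 50 bp, Timm23 and Parg 51 bp, Timm17b and Pqbp1 88 bp, Timm8b and Sdhd 98 bp, and Timm9 and 2700049A03Rik 164 bp. A peak over such a start cannot be told apart between the pair.

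Of the 26 genes 9 had a KDM2A promoter peak in all 6 lists (26.4% of all protein-coding genes), which allowed their fold to be compared. These were Timm10b, Timm13, Timm29, Timm44, Timm50, Tomm20, Tomm34, Tomm40 and Tomm70a. Their median mean fold was 3.12, the same to 3 digits as that of the 5799 protein-coding genes with a peak in all 6 lists.

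Timm13 (chromosome 10, 80899450 to 80900969, minus strand), a small TIM that escorts precursors with Timm8 proteins, stood at the 97.6th percentile of those 5799 genes. Its KDM2A folds were 3.60, 3.87 and 3.77 in the WT libraries, inside the KO range, with 4.23, 3.28 and 3.93 in the KO libraries. Tomm70a, a receptor for carrier precursors, followed at the 73.3rd percentile with 2.79, 3.10 and 3.72 in WT and 3.75, 3.10 and 3.28 in KO. Timm29 came next, and Timm44, the anchor of the import motor, had the lowest mean, with 2.47, 3.37 and 2.78 in WT and 3.12, 2.72 and 2.83 in KO. The Timm44 folds came from different sites. In WT replicate 2 and KO replicate 2 the peak covered its start, whereas in the other 4 lists the peak covered no start site and was centred inside Ctxn1, the gene beyond the 3′ end of Timm44, within reach of a Timm44 start annotated near that end. Timm44 therefore counts as bound in both genotypes and in all 6 lists only through those peaks, and its start had a peak in 1 list of each genotype.

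Tomm20 and Tomm34 were the next lowest. Tomm20, the presequence receptor, had folds of 2.65, 3.13 and 2.55 in WT and 3.23, 3.84 and 2.49 in KO. Tomm34 had 2.82, 3.18 and 3.07 in WT and 2.93, 3.33 and 3.03 in KO. The folds of both genes overlapped between genotypes.

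Fold was lower in every KO library than in every WT library for 2 of the 9 genes, both of the TIM22 complex, against 10.3% of the 5799 genes tested. Timm10b (chromosome 7, 105640056 to 105643637, plus strand) had a KDM2A fold of 3.31, 3.41 and 3.66 in WT and 2.50, 2.95 and 2.92 in KO. Timm29 (chromosome 9, 21592722 to 21595970, plus strand) had 3.95, 3.29 and 3.58 in WT and 3.11, 3.09 and 2.54 in KO. The 3.95 of WT replicate 1 came from a peak of 3682 bp that covered the Timm29 start. That peak was centred at −833 bp from it, inside Carm1 and Yipf2. None of the 9 was higher in every KO library (2.12% of all genes tested).

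Neither difference passed the test across all genes. On log2 fold centred on each library's median, limma gave Timm10b a KO minus WT difference of −0.25 (SE 0.11, adjusted p = 0.907) and Timm29 one of −0.25 (SE 0.13, adjusted p = 0.907). The difference for Tomm20 was 0.24 (SE 0.14, adjusted p = 0.907). These sizes moved with single libraries: Tomm20 was at 0.083 without KO replicate 2 and 0.42 without KO replicate 3, and Timm29 at −0.14 without KO replicate 3 and −0.16 without WT replicate 1. Of 5799 genes 0 were called at an adjusted p under 0.05 (0.0%), with 305 at an unadjusted p under 0.05, 1 of them Timm10b.

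**Figure D3:**
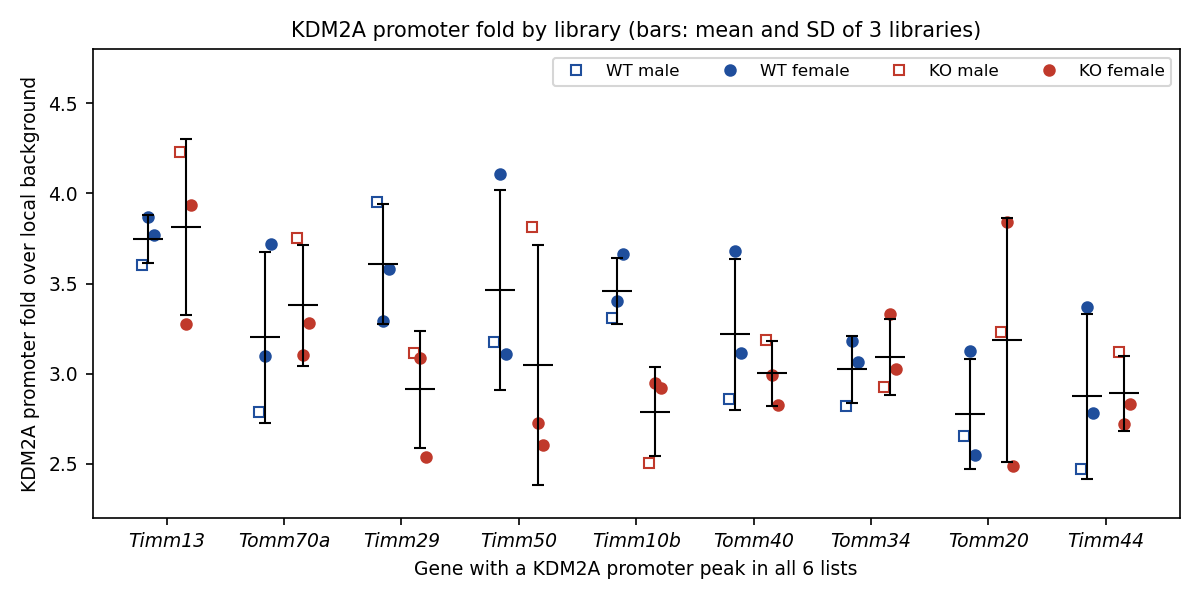
KDM2A promoter fold over local background in each library for the 9 genes with a peak in all 6 lists, ordered by mean; open squares are male and filled circles female libraries, and black bars the mean and SD of 3 libraries. All 3 KO points of Timm10b and of Timm29 lie below their 3 WT points, and the genotypes overlap for the other genes.

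A rule adapted from the study's, whose fold is peak signal over input, was applied to the mean of the MACS2 folds of each gene's highest promoter peaks. A gene bound in both genotypes was called enriched with a mean fold over 3 in the higher genotype and a ratio over 1.17 between them, and a gene bound in WT only or KO only with a mean fold over 3 alone. Timm10b and Timm29 met it. Timm10b had a mean fold of 3.46 ± 0.182 (SD, n = 3) in WT and 2.79 ± 0.248 in KO, a ratio of 1.24, and Timm29 of 3.61 ± 0.332 and 2.91 ± 0.325, also a ratio of 1.24. Of the 20 import genes bound in either genotype, 2 were thus WT-enriched (11.4% of the 10987 bound protein-coding genes) and 0 KO-enriched (2.1%). Timmdc1, with a ratio of 1.16, lay just under the limit.

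KDM2A breadth was measured as the percent of the promoter window under peaks. Timm13 had 58.9, 100 and 100% in WT and 54.4, 25.3 and 23.5% in KO. Its strongest peaks were 5674, 4758 and 5533 bp wide in WT and 2278, 1058 and 984 bp in KO. The gene overlaps Tmprss9, and the peak of WT replicate 1 was centred inside Tmprss9, 2370 bp from the nearest Timm13 start. Timm13 was the one gene of 24 with every KO library below every WT library (11.6% of the 13343 genes tested), and 0 of 24 were higher in every KO library (1.09%). In limma on log2(percent + 1), its KO minus WT difference was −1.37 (SE 0.39, adjusted p = 0.419), beside a median of −0.51 over all genes tested and of −0.64 over the 24. The Timm13 difference was −0.62 (adjusted p = 0.75) when coverage was divided by the genome share and −0.74 with a 1 kb window, and its direction turned, to 0.60, when peaks were counted by their centre. By limma 0 of 13343 genes were called (0.0%, with 995 at an unadjusted p under 0.05).

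KDM2A coverage of the gene body, from start to end, includes part of the promoter window. It was not among the tests, so its values are a description. A body peak was present in 18, 20 and 14 import genes in the WT libraries and in 15, 13 and 19 in the KO libraries, beside 52.8, 50.1 and 51.2% of all protein-coding genes in WT and 42.0, 41.0 and 48.1% in KO. Every KO library lay below every WT library for 5 of 24 genes (12.9% of the 14664 genes with any such coverage), and above for 0 (1.02%). Timm50, the TIM23 receptor for presequences, had a body coverage of 32.7, 17.7 and 18.6% in WT and 9.14, 5.37 and 7.23% in KO. Tomm34 had 6.25, 7.91 and 6.99% in WT and 4.05, 4.92 and 3.90% in KO. Tomm20 had 4.43, 4.20 and 7.54% in WT and 1.33, 3.48 and 2.04% in KO, although its promoter fold overlapped between genotypes. For Tomm40 the WT values were 22.8, 6.03 and 3.40% and the KO values 2.92, 2.78 and 2.67%, and for Tomm70a the WT values were 1.29, 1.27 and 3.54% and the KO values 1.25, 0.917 and 1.23%. The share of the genome under KDM2A peaks was also lower in every KO list, with 0.492, 0.433 and 0.715%, than in every WT list, with 1.11, 0.770 and 0.877%, and its part in these values was not tested.

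The promoter windows were rich in CpG. The 23 matched genes held a median of 20 CpG dinucleotides per 300 bases (7 to 35), against 14 over 16522 protein-coding promoters. The 9 genes with KDM2A in all 6 lists had 13 to 27 with a median of 22, the 8 with 3 to 5 lists a median of 21, and the 6 with 0 to 2 lists a median of 14.5. Timm8a1 departed from this order, with 34 CpG dinucleotides, at the 90.0th percentile of all promoters, and no KDM2A peak. Timm29 had 13 and Tomm20l, with none of the lists, also 13. CpG number is a description of 23 windows and carries no test.

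**Figure D4:**
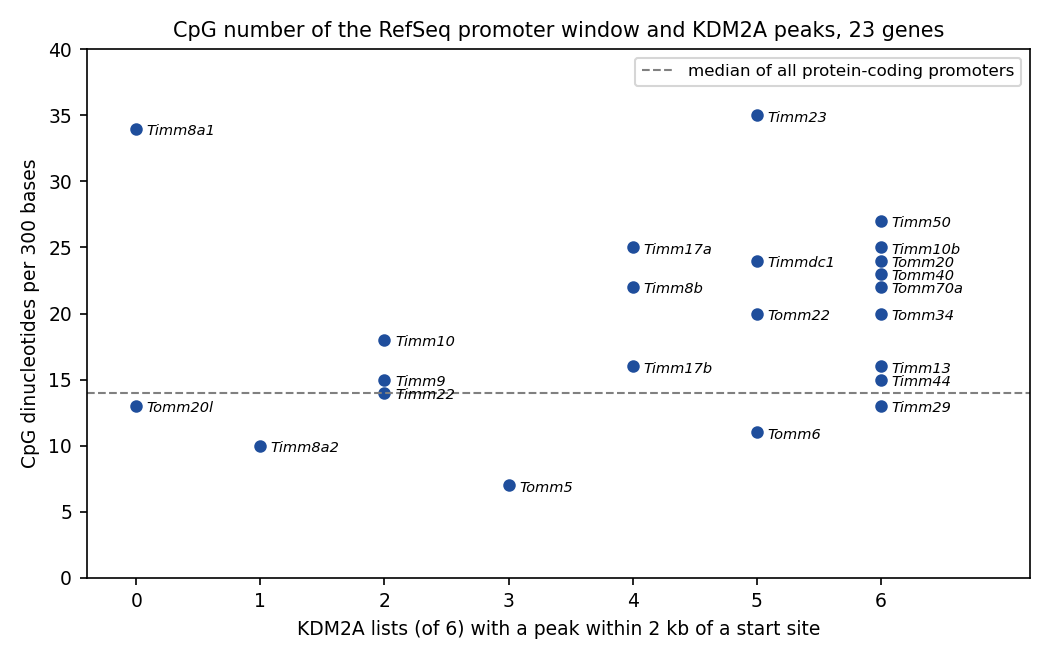
CpG dinucleotides per 300-base RefSeq promoter window against the number of KDM2A lists, of 6, with a peak within 2 kb of a start site, for 23 genes; the dashed line is the median of all protein-coding promoters, 14. Genes with 6 lists sit between 13 and 27, and Timm8a1 lies alone at 34 with no list.

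Letters of known factor sites were counted on both strands. CCGGAAG, a core of ETS family sites, was present in 10 of 23 windows (43.5%) against 12.3% of all promoters: those of Tomm22, Tomm34, Tomm70a, Timm8a2, Timm8b, Timm10, Timm10b, Timm23, Timm29 and Timmdc1. Timmdc1 held 4 copies and Tomm22 and Timm10 held 3 each. TGCGCA, the core of the NRF1 site, was present in 4 windows (17.4% against 10.4%), those of Tomm20, Timm8b, Timm13 and Timm23. AAGATGGC, a YY1 sequence, was present in Timm50 alone (4.35% against 3.26%). A match is a run of letters and not a site shown to be bound.

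H3K36me2 promoter peaks were about as frequent at the import genes as at all genes, and few covered a start. A promoter peak was present in at least 2 of 3 WT lists for 11 genes (40.8% of all protein-coding genes) and in at least 2 of 3 KO lists for 5 genes (20.9%). Those 5 were Timm8a2, Timm21, Timm44, Tomm22 and Tomm34. All but Timm8a2 had a peak in only 2 KO lists, 1 of them the male list that stood apart. Only Timm8a2 had one in both female KO lists. In WT, Tomm40l, Tomm6, Tomm22, Timm8b and Timm8a2 had one in all 3 lists and the other genes in 2. Of the 52 strongest H3K36me2 promoter peaks 7 (13.5%) covered a start site, against 91.5% of the KDM2A peaks, and their median distance from a start was 939 bp against 141 bp. In the WT libraries the share of import genes under a peak was highest 800 bp upstream, at 25.6% against 13.1% of all protein-coding genes at that distance, and was 6.41% at the start against 6.76%. The fall towards the start was also present over all genes, whose share was highest 1300 bp upstream, at 14.8%. The difference between the import genes and all genes was not tested.

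Per library, 12, 10 and 11 import genes had an H3K36me2 promoter peak in WT and 12, 5 and 2 in KO. The female KO libraries were thus below all WT libraries, and the male KO library was not. The share of all protein-coding genes moved in the same way, from 39.3, 40.5 and 41.4% in WT to 38.6, 16.1 and 17.7% in KO.

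**Figure D5:**
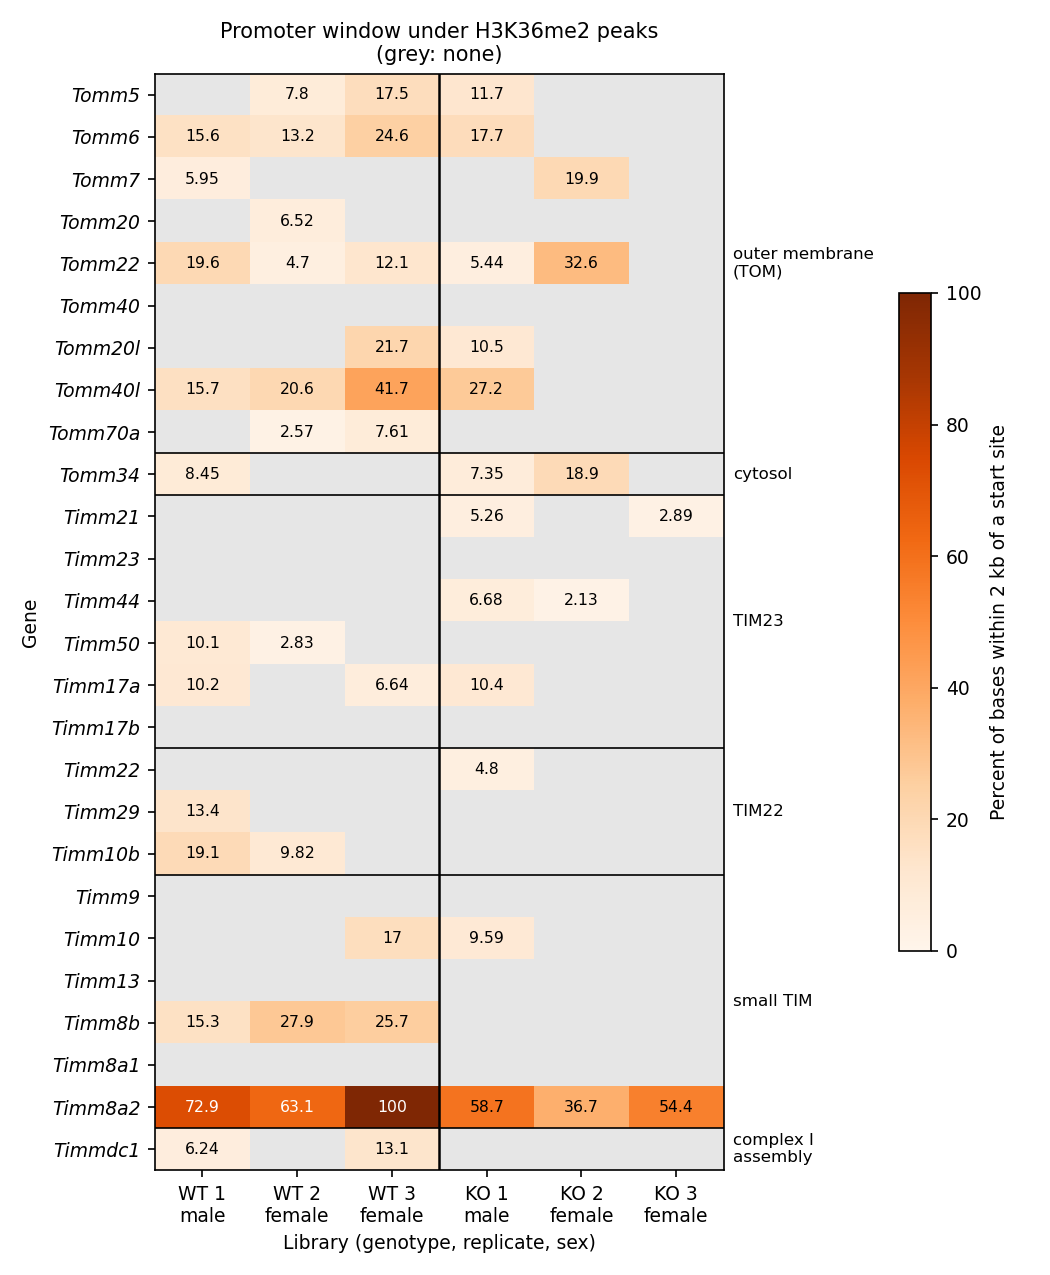
Percent of the bases within 2 kb of any start site under H3K36me2 peaks for 26 genes (rows, grouped by role) in 6 libraries (columns); grey cells have none. Timm8a2 is covered in every library, by 36.7 to 100%, and Timm8b in the 3 WT libraries alone.

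Timm8b (chromosome 9, 50603910 to 50605320, plus strand), a partner of the small TIM system, had 15.3, 27.9 and 25.7% of its promoter window under H3K36me2 peaks in WT and none in the 3 KO libraries. All 3 WT peaks were centred within Sdhd, the head-to-head neighbour that encodes a membrane anchor of respiratory complex II, with centres at −1031 to −685 bp from the Timm8b start. The limma difference was −4.54 on log2(percent + 1) (SE 1.22, adjusted p = 0.292), beside a median of −1.34 over all genes tested. As the 3 KO values were 0, its size moved with the pseudocount. It was −7.80 (adjusted p = 0.299) with a pseudocount of 0.1 and −2.45 (adjusted p = 0.201) with 5. When coverage was divided by each list's share of the genome under peaks the difference was −2.47 (adjusted p = 0.672), and with stricter peaks −1.62 (adjusted p = 0.497).

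Timm8a2 (chromosome 14, 122034674 to 122038420, plus strand), a paralogue of the X-linked Timm8a1, was the import gene most covered by H3K36me2. Its promoter window was covered by 72.9, 63.1 and 100% in WT and 58.7, 36.7 and 54.4% in KO. Its body, from start to end, was covered by 100, 81.1 and 100% in WT and 59.0, 0 and 22.0% in KO. Every KO library was below every WT library on both coverage measures, but limma gave −0.65 (SE 0.48, adjusted p = 0.485) for the promoter and −3.08 (SE 1.34, adjusted p = 0.307) for the body. With the strongest peaks taken in equal number from each list the promoter difference was 1.35, with stricter peaks 3.39 and when divided by the genome share 0.58, so its direction turned under these 3 settings. With peaks counted by their centre the promoter difference was larger in the first direction, at −1.62, as with a 1 kb window, at −1.26. The body difference was −1.34 without KO replicate 2, −0.96 with equal numbers of peaks, −1.62 when divided by the genome share and 0.038 with stricter peaks. The fold of its highest H3K36me2 promoter peak lay the other way, with 2.93, 2.52 and 2.75 in WT and 3.96, 3.10 and 3.11 in KO, so that every KO library was above every WT library (5.87% of the 1466 genes with a peak in all 6 lists, and 0.955% below), and no test was made of this fold.

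In all, every KO library lay below every WT library in promoter coverage for 2 of 20 genes, Timm8b and Timm8a2 (19.5% of the 12533 genes tested), and above for 0 (0.239%). For body coverage this held below for 1 of 12, Timm8a2 (22.8% of 12761), and above for 0 (0.0862%). The shares for the import genes were no larger than these backgrounds.

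Across all genes limma called 0 of 12533 for promoter coverage (0.0%, with 1841 at an unadjusted p under 0.05, 2 of them import genes) and 9 of 12761 for body coverage (0.0705%), none of them among the 12 import genes tested. Both counts turned on the libraries used. Without KO replicate 1, the male list that stood apart, 1530 of 11975 genes were called for promoter coverage (12.8%), and with female libraries alone 1505 of 11281 (13.3%). For body coverage 2825 of 12064 genes were called without KO replicate 1 (23.4%) and 2609 of 11348 with female libraries (23.0%), none of them an import gene, and 0 when any other library was left out or with the replicate block.

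The import genes called in both of those promoter fits were the same 3, Timm8b, Tomm40l and Tomm6. Tomm40l, a paralogue of the channel Tomm40, had 15.7, 20.6 and 41.7% of its window under H3K36me2 peaks in WT and 27.2, 0 and 0% in KO. Tomm6 had 15.6, 13.2 and 24.6% in WT and 17.7, 0 and 0% in KO. Without KO replicate 1 the limma differences were −4.54 for Timm8b (SE 0.75, adjusted p = 0.0163), −4.64 for Tomm40l (SE 0.79, adjusted p = 0.0169) and −4.19 for Tomm6 (SE 0.81, adjusted p = 0.0219). The male KO library lay inside the WT range for both Tomm40l and Tomm6, and all 4 Tomm6 peaks were centred upstream of it, inside Gm21981, a coding gene that overlaps Tomm6, and inside Prickle4 and Frs3. Whether sex, the library or the smaller female KO lists goes with this difference cannot be told apart with 1 male library a group.

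Over gene bodies H3K36me2 was rare. A body peak was present in at least 2 of 3 WT lists for 1 gene, Timm8a2 (42.1% of all protein-coding genes), and in at least 2 of 3 KO lists for 3 genes, Timm8a2, Timm21 and Tomm20l (25.9%). The KO count fell to 0 without KO replicate 1 and to 1 without KO replicate 3, and the count in both genotypes, 1, fell to 0 when either one was left out. Both remaining KO lists were then required, so these counts could not rise. Of the 26 genes 14 had no body peak in any list. The import genes are short, with a median of 6530.5 bp against 17403 bp, and length moves with this share: among the 7787 protein-coding genes of up to 10 kb 19.3% had a body peak in WT and 6.46% in KO, beside 1 and 2 of the 16 import genes of that length. Among genes over 10 kb the shares were 54.6% and 36.6%, beside 0 and 1 of 10 import genes.

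After Timm8a2, the highest mean body coverage was that of Timm10, with 23.1% in WT replicate 3 and 0 in the other 5 libraries. Tomm20l had 3.20% in WT replicate 2, 5.66% in KO replicate 1 and 7.06% in KO replicate 2. Timm21, a TIM23 subunit, had 7.37% and 4.05% in KO replicates 1 and 3 and Tomm40l 5.09% and 5.10% in the male WT and KO libraries. Each of these was at 0 in the libraries not named.

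KDM2A and H3K36me2 peaks shared some promoter windows but few KDM2A peaks touched an H3K36me2 peak. In WT 10 genes had both within the 2 kb window in at least 2 of 3 lists, 9 KDM2A alone, 1 (Timm8a2) H3K36me2 alone and 6 neither. In KO 4 had both, 14 KDM2A alone, 1 (again Timm8a2) H3K36me2 alone and 7 neither. Those 4, Timm21, Timm44, Tomm22 and Tomm34, each had H3K36me2 peaks in KO replicate 1 and in 1 female KO list. Over all protein-coding genes the WT shares were 32.2% for both marks, 15.5% for KDM2A alone, 8.63% for H3K36me2 alone and 43.6% for neither, and the KO shares were 14.5, 27.2, 6.33 and 51.9%. The genes with both marks thus went from 38.5 to 15.4% of the import genes and from 32.2 to 14.5% of all genes. The 15.4% rests on KO replicate 1, as none of those genes had H3K36me2 peaks in both female KO lists. The share of all genes was not computed without that list. Of the KDM2A promoter peaks themselves, 7 of 24, 1 of 22 and 4 of 16 touched an H3K36me2 peak of the same replicate number in WT and 1 of 16, 0 of 16 and 0 of 21 in KO. For all protein-coding genes the shares of KDM2A promoter peaks that touched one were 28.1, 22.2 and 25.1% in WT and 18.1, 3.33 and 5.41% in KO.

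Other genes of the import pathway were mostly occupied by KDM2A as well. Of 23 such genes, among them those of the import motor, the processing peptidases, the matrix chaperonin, the intermembrane space oxidation pathway and the outer membrane sorting machinery, 18 had a KDM2A promoter peak in both genotypes (39.4% of all protein-coding genes), Agk and Immp2l in WT only, and Dnajc15, Mipep and Mtx3 in neither. Among the 18, Hspd1 and Hspe1 had the same KDM2A fold as each other in every library. The same peaks may therefore be counted for both. By the adapted rule Grpel2, a nucleotide exchange factor of mitochondrial Hsp70, was WT-enriched by its ratio and Immp2l, a subunit of the inner membrane peptidase bound in WT only, by its WT fold of 3.17 ± 0.369 (SD, n = 3), and Chchd4, the intermembrane space oxidoreductase, was KO-enriched. Chchd4 had a KDM2A fold of 2.65, 2.82 and 2.83 in WT and of 3.85 and 2.99 in KO replicates 1 and 3, with no peak in KO replicate 2. An H3K36me2 body peak was present in at least 2 of 3 WT lists for 11 of the 23 and in at least 2 of 3 KO lists for 5 (47.8 and 21.7%), near the 42.1 and 25.9% of all genes.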

How the data were processed

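The authors ran nf-core/chipseq, in which BWA mapped the reads (GRCm38) and MACS2 called broad peaks library by library. Tool versions of BWA and MACS2 are not given in the sources used here, and no replicates were pooled. Each deposited list gives a fold over local background, which is a ratio not normalized between libraries, and a −log10 q-value, which is at least 1.00 in every deposited list. Input libraries (6) have no list and were not analysed here.

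Peaks were joined to GENCODE M21 genes by an overlap of at least 1 bp with the windows 2 kb either side of every start site, or with the gene body. For each gene and library the highest fold and the percent of the region under peaks were taken. KO and WT libraries (3 each) were compared with limma 3.58.1 (R 4.3.3, trended eBayes) over all protein-coding genes, on log2 fold centred on the library median for genes with a peak in all 6 lists, or on log2(percent + 1) for genes covered in at least 1 list, and p-values were adjusted by Benjamini-Hochberg (threshold 0.05). The script was tested on simulated data. The members and lists were chosen with earlier results of these data known. Values by library are given for genes not bound in both genotypes, for the 3 highest and the 3 lowest mean folds, for genes whose groups do not overlap, for those meeting a rule on mean fold adapted from the study and for the 5 with the highest H3K36me2 body coverage. Tomm6, Tomm40l, KDM2A body coverage and the H3K36me2 promoter fold were added after their values were seen.

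Alternatives were the replicate block, equal numbers of peaks, peaks with a −log10 q of at least 2, peak centres, each replicate left out, female libraries, windows of 1 and 5 kb, the gene start alone, uncentred or ranked fold, pseudocounts of 0.1 and 5, a mean coverage of at least 5%, coverage divided by the genome share and bodies outside 2 kb of a start. Peak lists hold no read counts, so depth and counting error are unknown.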

Additional observations from a re-analysis of the deposited data

Results flagged for a closer look

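The male pair of libraries (1 WT, 1 KO) moved one way and all female libraries the other for the following values, and no test of the sex difference was made. The number of import genes with an H3K36me2 body peak was higher by 2 in the male KO than in the male WT library (6 against 4), and was 1 and 2 in the female KO against 4 and 3 in the female WT libraries. Over all protein-coding genes the share with such a peak moved likewise, from 41.3 to 43.1% in the male pair, and stood at 21.0 and 23.2% in the female KO against 43.1 and 42.9% in the female WT libraries.

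KDM2A promoter fold of Tomm40 was higher by 0.328 in the male KO library, with 3.19 against 2.86, and lower in the female KO libraries, with 2.99 and 2.83 against 3.68 and 3.12. That of Timm50, the TIM23 receptor in the intermembrane space, was higher by 0.634 in the male KO library, with 3.81 against 3.18, and lower in the female ones, with 2.73 and 2.60 against 4.11 and 3.11. Such opposite movement held for 2 of the 9 import genes and for 18.8% of the 5799 genes tested.

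H3K36me2 promoter coverage was higher in the male KO library by 11.6 percentage points for Tomm40l, by 11.7 for Tomm5 and by 2.15 for Tomm6, while all 3 were at 0 in both female KO libraries and above 0 in both female WT libraries. This held for 3 of 20 import genes and for 16.6% of the 12533 genes tested. For KDM2A promoter coverage opposite movement held for 0 of 24 import genes and 9.31% of 13343 genes. For H3K36me2 body coverage it held for 0 of 12 and 21.7% of 12761. With 3 libraries a group, the rule for a single library standing apart from its group was not applied.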

How the results depend on the processing

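KDM2A promoter fold stayed at 0 genes called in all 16 alternatives, and KDM2A promoter coverage in all but the peak-centre count, which called 1. H3K36me2 promoter coverage went from 0 to 1505 genes with female libraries alone and ranged from 0 to 1530 as each replicate was left out, the upper end without KO replicate 1. H3K36me2 body coverage went from 9 genes to 0 with stricter peaks, peak centres or a pseudocount of 0.1, to 1 when divided by the genome share, to 5 outside 2 kb of a start, to 24 with a mean coverage of at least 5% and to 2609 in female libraries, and ranged from 0 to 2825 as each replicate was left out. No import gene was among the body calls of any of these fits. The cause was not tested.

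The 17 import genes bound by KDM2A in both genotypes became 9 with stricter peaks, 9 when all 3 lists were required and 11 in female libraries, and ranged from 11 to 16 as each replicate was left out. The 19 bound in WT became 12 when all 3 lists were required and ranged from 12 to 17, the lowest without WT replicate 2. The import gene with an H3K36me2 body peak in both genotypes, Timm8a2, dropped out (0) with stricter peaks, with all 3 lists required and in female libraries, and the count ranged from 0 to 1 as each replicate was left out. In WT that count was 0 with stricter peaks. In KO the 3 genes became 1 with stricter peaks, 0 with all 3 lists required and 0 in female libraries, and ranged from 0 to 2 as each replicate was left out. In female libraries and with a replicate left out, both remaining lists of the genotype were required. Those counts could therefore only fall or stay level.

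Direction turned for Timm13 KDM2A coverage with peak centres (0.60), for Timm8a2 H3K36me2 promoter coverage with equal numbers of peaks (1.35), stricter peaks (3.39) and division by the genome share (0.58), and for its body coverage with stricter peaks (0.038, adjusted p = 0.992).

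Same-numbered WT and KO replicates did not deviate together across genes (r of 0.0005, −0.0188 and 0.0164 for KDM2A fold and 0.0344, 0.0563 and −0.0305 for H3K36me2 body coverage). With 3 libraries a group, these values cannot tell whether same-numbered samples were handled together. Replicate 1 was male in every group. With the replicate block the H3K36me2 body calls went from 9 to 0 and the other 3 tests stayed at 0.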
